A study of Mus musculus with 16 samples.

Results

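The cytosolic ribosomal protein genes were described across the 16 RNA sequencing libraries of the series. They were chosen by symbol, as genes named Rpl, Rps or Rplp with a number and their close variants, plus Rpsa, without the Rps6k kinases. A gene also needed a mean above 1 CPM (read counts per 1000000 reads on genes) over the 16 libraries. Of 24060 rows in the deposited tables, 85 symbols matched and 75 passed the level. The 75 were 43 large subunit genes, 29 small subunit genes and 3 genes of the stalk (Rplp0, Rplp1 and Rplp2). Of the 29, Rps4l counts by its symbol only, since the GENCODE annotation gives it as a transcribed processed pseudogene. The 10 symbols that did not pass were Rpl10l, Rpl26, Rpl34, Rpl38, Rpl39l, Rpl3l, Rps13, Rps16, Rps23 and Rps29, with means of 0 to 0.699 CPM. None of these 10 was tested as a member. For Rpl26, Rpl34, Rpl38, Rps13, Rps16, Rps23 and Rps29, 32.0% to 78.9% of the 69-base stretches of the transcript also occur in other annotated genes. For Rpl10l, Rpl39l and Rpl3l it was 0% to 1.57%. Only uniquely mapped reads were counted, and the part of this in the low means was not tested. For brevity the 75 are called RP genes.

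RNA came from the somatosensory cortex of 3-month-old C57BL/6J mice of genotype Aldh1l1CreERT2-RiboTag, all given tamoxifen at 2 months of age by their labels. The labels and the study's methods differ on the interval from tamoxifen to the experiment. In these mice the Aldh1l1 promoter drives a tamoxifen-activated Cre recombinase in astrocytes, and Cre turns on a hemagglutinin (HA) tag on Rpl22, a protein of the large ribosomal subunit. IP libraries were made from RNA pulled down with an antibody to HA and INPUT libraries from the cleared lysate of all cells, with 4 of each from naïve and 4 of each from stressed mice. A library is named by the number in its label (stress IP 5). Stressed mice swam for 20 min and recovered for 90 min in the home cage, whereas naïve mice stayed in the home cage. Both conditions carried the transgenes and received tamoxifen, so no library came from animals without the tag. Per the study's methods, part of the lysate of each mouse became INPUT and the rest went to the IP. The sources used here do not say which IP and which INPUT share a mouse. Libraries were therefore treated as independent, and p-values ignore this pairing.

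Libraries held 16392876 to 25814364 reads on genes. All 8 of 8 astrocyte markers were higher in naïve IP than in naïve INPUT, and 8 of 8 neuronal, 6 of 6 microglial and 5 of 5 endothelial markers were lower. Of 6 oligodendrocyte markers, 5 were lower and 1 was higher. Summed astrocyte markers reached 82169 to 87194 CPM in naïve IP against 5071 to 5393 CPM in naïve INPUT, while neuronal markers fell from between 10493 and 10901 CPM in INPUT to between 467 and 603 CPM in IP. The labelled cell type was therefore present in its markers, with some neuronal RNA left in IP. Summed erythrocyte markers were at 11.0 to 21.5 CPM in naïve IP and 1.30 to 3.36 CPM in naïve INPUT, and choroid plexus markers ranged from 2.60 to 123 CPM among the naïve IP libraries.

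Ribosomal proteins are the protein parts of the ribosome, and each subunit is built around its ribosomal RNA with one copy of most of them. The stalk proteins are the exception, being present as more than one copy, and they recruit the factors that drive translation. The mRNAs of ribosomal proteins typically begin with a C followed by a run of pyrimidines, the 5′ terminal oligopyrimidine (TOP) motif, through which growth signals by way of the kinase mTORC1 and the protein LARP1 set how actively they are translated. In the brain, many of these mRNAs are also found in the fine processes of neurons and glia. In the RiboTag method, mRNAs are recovered because they are attached to ribosomes that contain the tagged Rpl22.

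The pyrimidine tracts are shown here for Rpl22 and its paralog, for genes among the 5 highest and the 5 lowest IP over INPUT ratios described further on, and for Rpl15, which had 1 of the 3 smallest unadjusted p-values for stress in IP. The capitals mark the longest run within 50 bases of the annotated start that begins with C and holds at least 8 bases of C or T. Each window holds 30 bases around that run on the gene's own strand, from RefSeq on GRCm38.p6.
Rpl22 (chr4:152325679-152325708, plus strand): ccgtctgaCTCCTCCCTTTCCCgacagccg
Rpl22l1 (chr3:28805500-28805529, plus strand): gcaagcccgttCTCTTCCCacggctgcagc
Rps27l (chr9:66946054-66946083, plus strand): cccgcctccaCTCCTCTCCactcctccccg
Rpl18 (chr7:45718062-45718091, plus strand): tcgcaggccgCTCTTTCCCCgcccactccg
Rpl7a (chr2:26910790-26910819, plus strand): caattCCCTCTTCTTTCTTTCTCCagcagc
Rps6 (chr4:86857349-86857378, minus strand): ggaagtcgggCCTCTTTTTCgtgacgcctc
Rps15a (chr7:118116143-118116172, minus strand): gcccggcccaCTCTCTTTCTgccatcttcc
Rpl27a (chr7:109519186-109519215, plus strand): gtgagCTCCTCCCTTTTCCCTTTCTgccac
Rps12 (chr10:23787181-23787210, minus strand): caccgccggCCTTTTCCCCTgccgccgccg
Rpl15 (chr14:18270967-18270996, minus strand): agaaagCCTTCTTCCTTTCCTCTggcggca

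Counting the annotated start as 0, the run began at −39 in Rpl22, 3 in Rpl22l1, −22 in Rps27l, 1 in Rpl18, −12 in Rpl7a and −1 in Rps6. It began at −15 in Rps15a, −4 in Rpl27a, 8 in Rps12 and −4 in Rpl15. Runs were 8 bases long in Rpl22l1, 9 in Rps27l, 10 in Rpl18, Rps6 and Rps15a, 11 in Rps12, 14 in Rpl22, 17 in Rpl15, 19 in Rpl7a and 20 in Rpl27a. The runs of Rpl22, Rps27l and Rps15a thus lay wholly upstream of the annotated start. Rpl22 and Rps27l each have a further annotated start with no such run within 50 bases.

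A RefSeq promoter (250 bases before to 50 after the start) was matched for 55 of the 75 RP genes. Within 50 bases of the start on the sense strand, 46 of the 55 (83.6%) held such a run, against 32.0% of all 27025 genes in the same table. The letters CCGGAAG or their reverse complement CTTCCGG, a core bound by ETS family transcription factors, were found from 100 bases before to 50 after the start in 16 of the 55 (29.1%), against 7.52% of all genes. The CTTCCGG form can overlap the pyrimidine run. The median log2 ratio of IP over INPUT in naïve mice was −1.59 over the 46 genes with a run and −1.31 over the 9 without one, with ranges of −2.63 to 0.30 and −2.08 to −0.13 that overlapped widely.

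In the astrocyte IP, RP mRNAs took a smaller share of the reads than in INPUT. Summed over the 75 genes, RP reads made up 0.120%, 0.122%, 0.113% and 0.128% of gene reads in the 4 naïve IP libraries and 0.329%, 0.303%, 0.369% and 0.327% in the 4 naïve INPUT libraries. Means were 0.121% ± 0.0059 and 0.332% ± 0.0273 (SD, n = 4 each), and no IP library came near an INPUT library. In stressed mice the means were 0.122% ± 0.0080 in IP and 0.329% ± 0.0224 in INPUT (SD, n = 4 each). IP and INPUT differ both in cell type and in the RNA taken, attached to ribosomes or from the whole lysate. Less RP mRNA in astrocytes and less of it attached to ribosomes therefore cannot be told apart. Within INPUT, which is bulk RNA, fewer cells of a type and less RNA per cell cannot be told apart. The share is also a share of uniquely mapped reads, a point taken up with the levels per length.

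**Figure D1:**
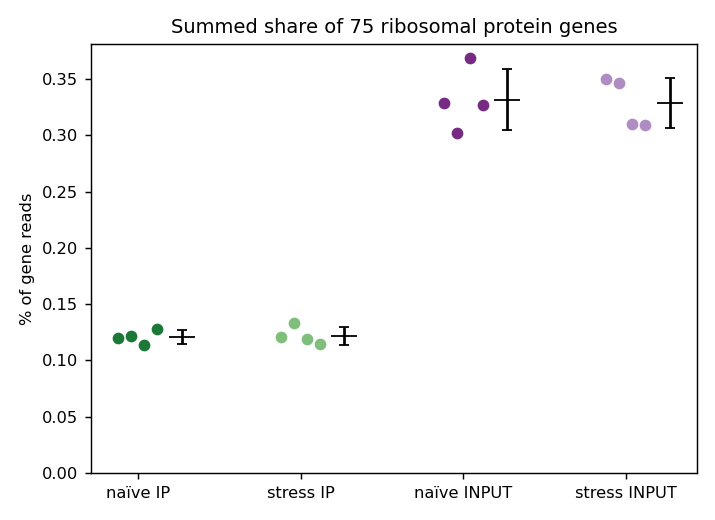
Summed share of gene reads (%) held by the 75 RP genes in each library, by group; points are libraries and bars are mean ± SD. The 8 IP libraries lie between 0.113% and 0.133% and the 8 INPUT libraries between 0.303% and 0.369%.

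Gene by gene, 72 of the 75 RP genes were lower in naïve IP than in naïve INPUT, 0 were higher and 3 were not called (limma, Benjamini-Hochberg adjusted p under 0.05 over all genes tested). Over all 13339 genes tested, 64.0% were lower and 23.7% higher. The median log2 ratio of the RP genes was −1.45, against −0.64 over all genes, and 67 of the 75 lay below the all-gene median. For 70 of the 75, the 4 IP and 4 INPUT libraries did not overlap, and the same held for 83.7% of all genes tested. A gene with few reads in IP could pass the level through INPUT alone, and 66 of the 75 exceeded 1 CPM in naïve IP itself, of which 63 were lower. The share of all genes lower under that restriction was not computed, so these 63 have no all-gene share to be set against.

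The same comparison in stressed mice called 68 RP genes lower, 1 higher and 6 in neither direction, and 62.5% of all 13333 genes tested were lower and 23.6% higher. The median log2 ratio was −1.44, against −0.63 over all genes, and 64 of the 75 RP genes did not overlap between IP and INPUT, against 81.4% of all genes tested. Here 64 exceeded 1 CPM in stress IP, with 57 of them lower and 1 higher, again without an all-gene share under that restriction. The naïve and the stressed comparison use separate libraries. Across the 75 genes, their ratios had a Pearson r of 0.93 and a Spearman rho of 0.90, and r was 0.97 over the 40 genes with a mean above 10 CPM. The points share the pull-down, the read counting and the gene annotation, and genes are not independent replicates.

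As more genes were lower than higher over the whole table, the ratios were also taken after median-ratio scaling, which sets the typical gene to no change. This moved the all-gene median to 0.02 in naïve and 0.02 in stressed mice. The median of the RP genes was then −0.81 in naïve and −0.79 in stressed mice. In naïve mice 57 of 74 tested RP genes were lower and 2 higher, where 41.5% of all genes were lower and 42.8% higher. In stressed mice 58 of 74 were lower and 2 higher, where 40.5% of all genes were lower and 41.7% higher. The RP genes thus stayed below the typical gene on both scales, while the direction of individual genes near the top of the order depended on the scale.

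**Figure D2:**
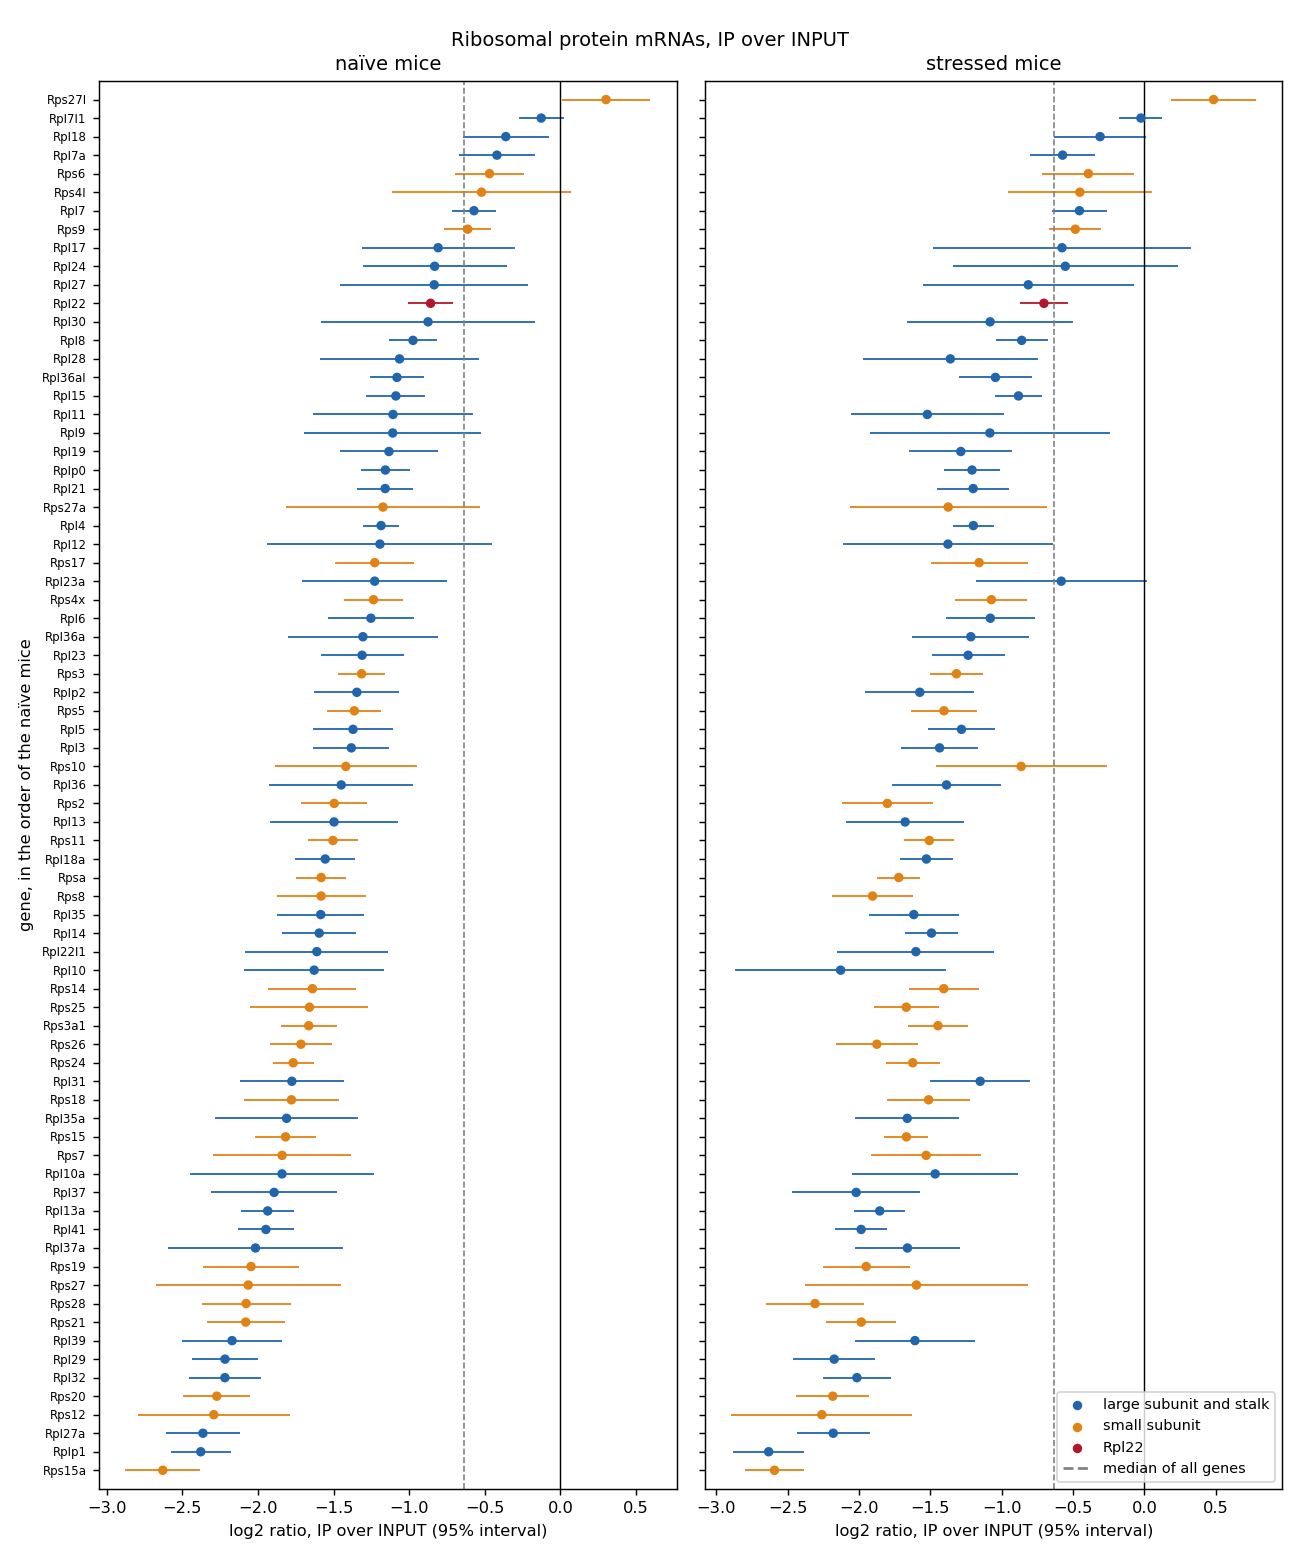
Log2 ratio of IP over INPUT for each of the 75 RP genes in naïve (left) and stressed (right) mice, on the log2(CPM + 0.1) scale, in the order of the naïve mice. Points are fitted ratios and lines 95% intervals; the dashed line is the median of all genes, at −0.64 and −0.63. Most points lie left of that line, from Rps15a at −2.63 to Rps27l at 0.30 in naïve mice, and Rpl22 is the twelfth from the top in both panels.

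The 3 stalk genes were all lower in naïve IP, where 64.0% of all genes tested were lower, and had a median log2 ratio of −1.35. Rplp1, 1 of the acidic stalk proteins, had 49.6, 42.1, 52.9 and 52.4 CPM in naïve IP and 249, 229, 303 and 246 CPM in naïve INPUT. All IP libraries lay far below all INPUT libraries, at a log2 ratio of −2.38 ± 0.09 (SE, adjusted p = 1.5e-11, limma). Its partner Rplp2 had a log2 ratio of −1.35 ± 0.13 (SE, adjusted p = 3.1e-07, limma), and Rplp0, which anchors the stalk to the large subunit, −1.16 ± 0.07 (SE, adjusted p = 4.0e-09, limma). The 95% intervals of Rplp1, from −2.58 to −2.18, and of Rplp0, from −1.32 to −0.996, did not overlap.

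Of the 43 large subunit genes, 42 were lower in naïve IP, against 64.0% of all genes tested, with a median of −1.31. At the bottom of their order stood Rpl27a, with 4.75, 4.93, 3.60 and 4.30 CPM in naïve IP and 21.9, 22.1, 23.5 and 24.004 CPM in naïve INPUT, a log2 ratio of −2.36 ± 0.11 (SE, adjusted p = 1.4e-10, limma). Rpl27a lies at chr7:109519147-109522367 (mm10) and 2 snoRNA genes lie inside it. Near the top stood Rpl7a and Rpl18, which reached 20.3 to 25.5 and 5.25 to 6.47 CPM in naïve IP. In naïve INPUT they reached 26.1 to 37.4 and 6.55 to 9.08 CPM, so that neither overlapped between IP and INPUT but both came close to it. Their log2 ratios were −0.42 ± 0.12 (SE, adjusted p = 0.0040, limma) and −0.36 ± 0.13 (SE, adjusted p = 0.020, limma). After median-ratio scaling both values turned positive, at 0.23 and 0.28, and neither was past the threshold (adjusted p = 0.088 and 0.053, limma). Rpl18 overlaps the gene Sphk2 in the annotation, and 78.3% of the 69-base stretches of Rpl7a also occur in other annotated genes, so reads at both are uncertain.

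Among the 29 small subunit genes, 27 were lower in naïve IP, against 64.0% of all genes tested, with a median of −1.64. The lowest ratio of all 75 genes was that of Rps15a, a core protein of the 40S subunit, at −2.63 ± 0.11 (SE, adjusted p = 5.4e-11, limma). Rps15a had 13.7, 9.00, 10.7 and 12.6 CPM in naïve IP against 75.5, 65.5, 74.6 and 68.1 CPM in naïve INPUT. Rps20, a protein of the head of the 40S subunit, had 7.34, 7.61, 6.54 and 7.83 CPM in naïve IP and 31.9, 32.7, 41.4 and 37.8 CPM in naïve INPUT (log2 ratio −2.27 ± 0.10, SE, adjusted p = 8.3e-11, limma). These 2 genes were well covered and separated widely. Rps12 had a similar ratio of −2.29 ± 0.23 (SE, adjusted p = 5.0e-07, limma), but from 0.493 to 0.832 CPM in naïve IP and 2.49 to 3.90 CPM in naïve INPUT. Its interval, from −2.79 to −1.79, reached well into the range of the other genes.

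Rps6, the small subunit protein that S6 kinases phosphorylate downstream of mTORC1, was among the 5 highest ratios. It had 7.98, 7.52, 7.95 and 6.59 CPM in naïve IP and 11.2, 9.83, 10.5 and 10.2 CPM in naïve INPUT, without overlap. The log2 ratio was −0.47 ± 0.10 (SE, adjusted p = 0.00084, limma) and turned to 0.18 after median-ratio scaling (adjusted p = 0.11, limma). For Rps6, 84.2% of its 69-base stretches also occur in other annotated genes.

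Genes named as paralogs of a core ribosomal protein mostly had higher ratios. The 5 such genes, Rps27l, Rpl7l1, Rps4l, Rpl36al and Rpl22l1, had a median log2 ratio of −0.52, against −1.50 over the other 70. In naïve IP 2 of the 5 were lower, against 70 of 70 for the others and 64.0% of all genes tested. Over the 4 without the pseudogene Rps4l the median was −0.60. Rps27l, the paralog of Rps27, was the only RP gene with a ratio above 0. It had 5.29, 5.11, 4.07 and 4.84 CPM in naïve IP and 3.61, 4.06, 3.74 and 4.12 CPM in naïve INPUT, where 1 IP library lay inside the INPUT range (log2 ratio 0.30 ± 0.14, SE, adjusted p = 0.051, limma). In stressed mice it had 5.49, 5.23, 5.20 and 4.82 CPM in IP and 4.09, 3.25, 3.65 and 3.75 CPM in INPUT, without overlap, and it was the 1 gene called higher (log2 ratio 0.48 ± 0.14, SE, adjusted p = 0.0053, limma).

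Rpl7l1, the paralog of Rpl7, was close to level, with 30.4, 28.1, 27.8 and 27.6 CPM in naïve IP and 32.6, 29.3, 32.0 and 30.7 CPM in naïve INPUT. Its log2 ratio was −0.13 ± 0.07 (SE, adjusted p = 0.096, limma) in naïve and −0.02 ± 0.07 (SE, adjusted p = 0.74, limma) in stressed mice. With median-ratio scaling Rps27l and Rpl7l1 were the 2 genes called higher, at 0.94 and 0.53 in naïve and 1.11 and 0.62 in stressed mice. Rps4l, the annotated pseudogene, has 1 exon. It varied from 3.06 to 7.28 CPM in naïve IP and from 4.24 to 9.68 CPM in naïve INPUT and was not called (log2 ratio −0.52 ± 0.27, SE, adjusted p = 0.088, limma). Rpl36al was lower at −1.08 ± 0.08 (SE, adjusted p = 2.3e-08, limma), as was Rpl22l1, described with Rpl22.

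Rpl22 carries the HA tag in the recombined cells, so its own mRNA was followed in every library. Rpl22 lies on chr4:152325742-152334071 (mm10) with 4 exons, and 2.27% of its 69-base stretches occur in other annotated genes. It had 26.9, 26.2, 24.9 and 27.7 CPM in naïve IP and, after stress, 26.4, 31.3, 28.1 and 29.8 CPM in IP. Its INPUT values were 51.4, 44.1, 46.7 and 49.9 CPM in naïve and 49.7, 47.9, 43.0 and 47.8 CPM in stressed mice. Every IP library lay below every INPUT library. The deposited counts are per gene and do not separate mRNA with the tag from mRNA without it.

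The log2 ratio of Rpl22 was −0.86 ± 0.07 (SE, adjusted p = 5.2e-08, limma) in naïve mice and −0.70 ± 0.08 (SE, adjusted p = 2.4e-06, limma) in stressed mice. The exact permutation test (two-sided, n = 4 against 4) gave p = 0.029 in both, the smallest value it allows. Rpl22 was the twelfth highest of the 75 ratios in both conditions, and 42.9% of all genes in naïve mice and 47.6% in stressed mice had a lower ratio. Its neighbours in the naïve order were Rpl27 at −0.83 and Rpl30 at −0.88, both with low means of 1.62 and 1.12 CPM over the 16 libraries. After median-ratio scaling the ratio of Rpl22 was −0.21 (adjusted p = 0.0081, limma) in naïve mice and −0.063 (adjusted p = 0.48, limma) in stressed mice, so the call was lost in stressed mice.

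Within the RP reads, Rpl22 took up 2.19% ± 0.0376 in naïve IP, 2.37% ± 0.169 in stress IP, 1.45% ± 0.131 in naïve INPUT and 1.43% ± 0.0771 in stress INPUT (SD, n = 4 each). The IP libraries ranged from 2.15% to 2.59% and the INPUT libraries from 1.27% to 1.56%, with no overlap. Any gene whose ratio lies above that of the summed RP reads takes a larger share in IP. The genes placed above Rpl22 in the order of ratios do so too, and the rise is not particular to Rpl22. Its paralog Rpl22l1, which can take the place of Rpl22 in the ribosome, was far scarcer. Rpl22l1 had 0.979, 0.627, 1.21 and 0.852 CPM in naïve IP and 3.22, 2.88, 3.04 and 2.64 CPM in naïve INPUT, a log2 ratio of −1.61 ± 0.22 (SE, adjusted p = 9.9e-06, limma). In stressed mice its ratio was −1.60 ± 0.25 (SE, adjusted p = 6.3e-05, limma). It stood at place 47 of 75 in naïve and 49 of 75 in stressed mice, below Rpl22 in both, with intervals in naïve mice of −2.08 to −1.14 for Rpl22l1 and −1.01 to −0.71 for Rpl22. Its libraries held 13 to 31 reads in IP, so the value is coarse.

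**Figure D3:**
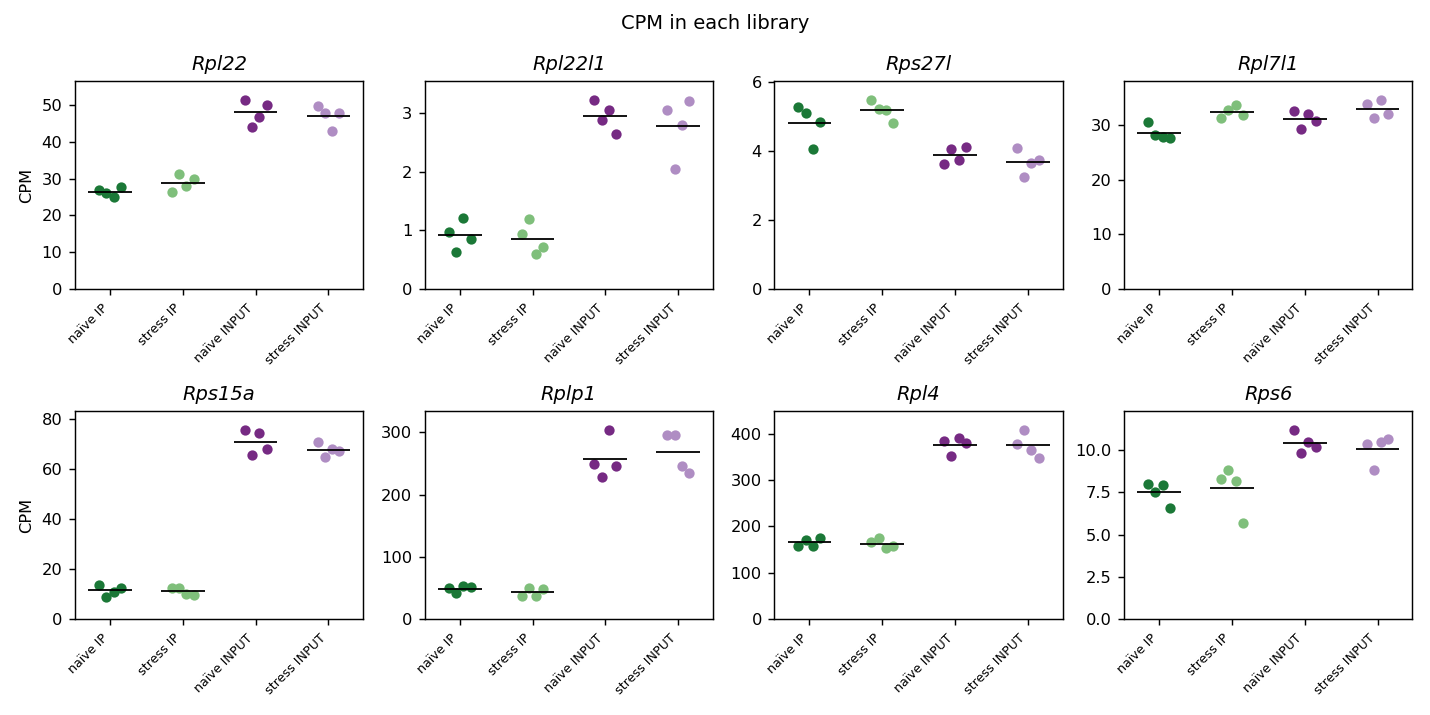
CPM in each of the 16 libraries for 8 RP genes, on linear axes from 0; points are libraries, horizontal lines are group means (n = 4). Rpl22, Rpl22l1, Rps15a, Rplp1 and Rpl4 are lower in all IP libraries than in all INPUT libraries, Rps27l is higher in IP on average, and Rpl7l1 overlaps.

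Acute swim stress left the RP genes without a called change in IP or in INPUT. In IP, 63 of the 75 passed the filter for this comparison and 0 were called, against 0.440% of all 12501 genes tested. At an unadjusted p under 0.05 there were 2 RP genes, and 1034 (8.27%) of all genes. The median log2 fold change of stress over naïve was 0.03 and the smallest adjusted p was 0.47 (limma). In INPUT all 75 were tested and 0 were called, against 0.0442% of 13577 genes, with 1 RP gene and 683 genes in all at an unadjusted p under 0.05. The median was −0.03 and the smallest adjusted p was 0.86 (limma). The limma-voom fit on recovered reads also called 0 in each.

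The intervals show how small a change could have been seen with 4 libraries per group. The 95% interval lay within ±0.5 on the log2 scale for 45 of 63 genes in IP and for 58 of 75 in INPUT, so a change of that size or more was outside the interval of these genes but not of the rest. Fitted changes were under 0.25 in size for 61 of 63 genes in IP and 67 of 75 in INPUT. The difference between the 2 stress effects, tested on all 16 libraries, was called for 0 of 75 RP genes, against 0.0225% of 13341 genes, with a median of 0.07 and a smallest adjusted p of 0.88 (limma). At an unadjusted p under 0.05 there were 2 RP genes, and 629 genes in all.

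The 3 genes with the smallest unadjusted p in IP were Rpl7l1, Rpl15 and Rpl31. Rpl7l1 had 31.2, 32.6, 33.7 and 31.7 CPM in stress IP, all above its naïve IP libraries given before, a log2 change of 0.18 ± 0.07 (SE, adjusted p = 0.47, limma). Rpl15 had 14.0, 14.4, 12.4 and 16.2 CPM in the naïve IP libraries and 18.02, 16.9, 16.5 and 15.8 CPM in the stress IP libraries, with overlap (0.24 ± 0.10, SE, adjusted p = 0.54, limma). Rpl31 had 2.15, 1.88, 2.11 and 2.98 CPM in naïve mice and 2.27, 3.21, 3.70 and 3.29 CPM in stressed mice (0.43 ± 0.20, SE, adjusted p = 0.62, limma). The stress libraries of these genes lay toward the upper side, yet none was past the threshold. Rpl31 also had 1 of the 2 smallest unadjusted p-values for the difference of the stress effects (0.62 ± 0.22, SE, adjusted p = 0.88, limma). Its INPUT libraries held 6.79 to 7.08 CPM after stress and 7.54 to 8.98 CPM in naïve mice.

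In INPUT the smallest unadjusted p-values belonged to Rpl39, Rps27a and Rps7. Rpl39, a short protein at the exit tunnel of the large subunit, had 7.91, 7.54, 8.88 and 9.87 CPM in naïve INPUT and 6.22, 7.26, 5.89 and 7.39 CPM in stress INPUT. The groups did not overlap, by a margin of 7.54 against 7.39 CPM, and the log2 change was −0.35 ± 0.13 (SE, adjusted p = 0.86, limma). Rps27a, which is made as a fusion with ubiquitin, changed by −0.40 ± 0.21 (SE) and Rps7 by −0.29 ± 0.15 (SE), both with an adjusted p of 0.99 (limma). Neither stood clear of its naïve libraries, which ran from 1.94 to 3.16 CPM for Rps27a and from 4.07 to 6.15 CPM for Rps7. In stress INPUT they ran from 1.49 to 2.14 and from 4.27 to 4.58 CPM.

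Rpl22 changed by 0.13 with stress in IP (95% interval −0.04 to 0.29, adjusted p = 0.70, limma) and by −0.03 in INPUT (95% interval −0.18 to 0.12, adjusted p = 0.995, limma). The difference between these effects was 0.15 (95% interval −0.06 to 0.37). All 3 intervals included 0. By subunit, stress over naïve medians were 0.04 for large subunit, 0.03 for small subunit and −0.11 for stalk genes in IP, and −0.02, −0.05 and 0.06 in INPUT.

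**Figure D4:**
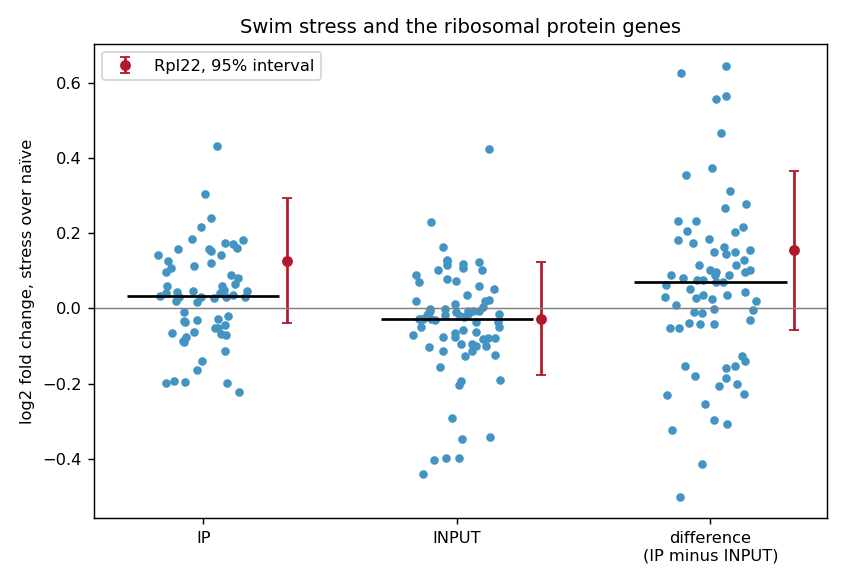
Log2 fold change of stress over naïve for the RP genes tested in IP (63), in INPUT (75) and for the difference of the 2 effects (75); points are genes, black lines medians (0.03, −0.03 and 0.07), and red points Rpl22 with its 95% interval. No RP gene was called in any of the 3 comparisons.

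Libraries of one group differed from each other in the RP genes as a set. For each gene, the deviation of log2(CPM + 0.1) from its group mean was taken, and the median over the 75 genes ran from −0.12 to 0.14 among libraries. In stress IP 5, 65 of 75 genes lay above the group mean, whereas in stress IP 15 there were 19 of 75. Naïve INPUT 14 had 61 of 75 above and naïve INPUT 7 had 11 of 75, and stress INPUT 1 had 63 of 75. Naïve IP 11 had 18 of 75 and naïve IP 13 had 54 of 75. All-gene medians ranged from −0.04 to 0.04. Over all 13338 genes, 60.5% lay above the group mean in stress IP 5 and 47.3% in stress IP 15. The share was 50.6% in naïve INPUT 14, 41.4% in naïve INPUT 7 and 58.5% in stress INPUT 1. In naïve IP 11 it was 38.6% and in naïve IP 13 it was 56.2%.

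**Figure D5:**
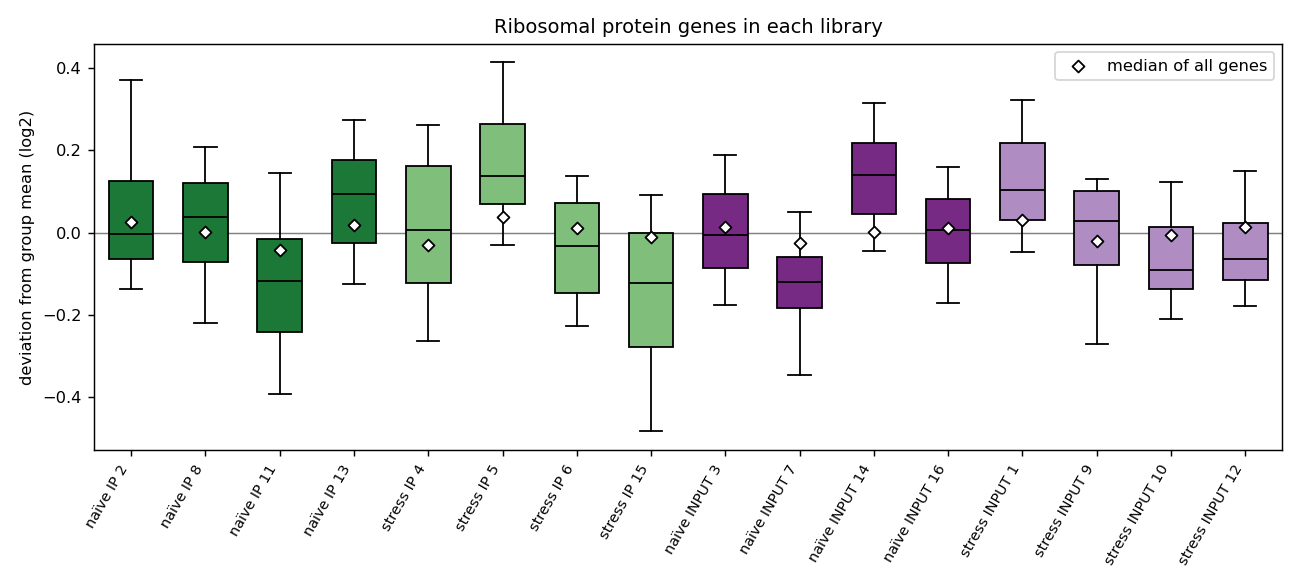
Deviation of the 75 RP genes from their group mean (log2) in each of the 16 libraries; boxes show quartiles and medians over genes, whiskers the 10th and 90th percentiles, and diamonds the median of all genes. Stress IP 5, naïve INPUT 14 and stress INPUT 1 lie above 0 and naïve IP 11, stress IP 15 and naïve INPUT 7 below it, while the diamonds stay between −0.04 and 0.04.

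Each gene's deviations were then correlated with the mean of the other RP genes over the 16 libraries. The median Pearson r was 0.53 over the 75 RP genes, against 0.14 for 13263 other genes, and 40 of 75 (53.3%) had r above 0.5 against 16.5% of the others. Over the 40 RP genes above 10 CPM the median was 0.61 and 30 were above 0.5, against 17.4% of other genes above 10 CPM. The median was 0.54 within the 8 IP libraries and 0.56 within the 8 INPUT libraries. All of these are descriptions of the same libraries. Per the study's methods each mouse gave both an IP and an INPUT, so the 16 libraries are not independent.

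Rpl32 followed the others most closely, at r = 0.89, with 19.7, 22.5, 17.0 and 24.4 CPM in naïve IP and 99.0, 82.1, 108 and 100 CPM in naïve INPUT. Its low and high libraries were those in which most RP genes were low and high. Rplp0 followed at r = 0.85. The least were Rpl36 at −0.24, with 1.32 to 2.51 CPM in IP, and Rps4l at −0.17. Among genes outside the RP set, the most alike were Atp5c1, a subunit of the mitochondrial ATP synthase, at r = 0.91, Snx1, a sorting nexin of endosomes, at 0.89, and Tpi1, the glycolytic enzyme triosephosphate isomerase, at 0.89.

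Other lists moved with the RP genes to differing degrees. The median r with the RP mean was 0.56 for 76 mitochondrial ribosomal proteins, 0.45 for 16 other TOP mRNAs, 0.30 for 45 ribosome biogenesis factors and 0.08 for 19 genes of the mTORC1 pathway. Transcript length went along with it: the median r was 0.40 over 494 other coding genes under 1000 bases, 0.30 at 1000 to 2000 bases, 0.18 at 2000 to 4000 bases and −0.04 at 4000 bases and over. Of the RP genes, 51 have transcripts under 1000 bases. The RP mean also had r = −0.39 with the log2 depth of the library, −0.60 with astrocyte markers, −0.48 with neuronal markers and 0.43 with oligodendrocyte markers over the 16 libraries. It was −0.48 with microglial, −0.11 with endothelial and 0.24 with choroid plexus markers (2 genes), and −0.35 with the 1 erythrocyte marker tested. The part of length, depth and cell makeup in the coherence was not tested.

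The IP over INPUT ratio had little linear relation to the gene features examined. Over the 75 genes, Pearson r with the naïve ratio was −0.07 for transcript length, −0.04 for GC content, 0.03 for the share of 69-base stretches found in other genes and −0.08 for mean CPM. Spearman rho was 0.21, −0.04, 0.08 and −0.14 in the same order, so the sign for length differed between these measures. Other coding genes under 1000 bases (493 genes) had a median ratio of −0.66 in naïve mice, whereas the 51 RP genes of that length had −1.50. At 1000 to 2000 bases the medians were −0.63 over 2255 other genes and −1.31 over 19 RP genes. At 2000 to 4000 bases they were −0.64 over 5084 other genes and −1.12 over 4 RP genes. At 4000 bases and over, 4495 other genes had a median of −0.56, and the only RP gene was Rps15a at −2.63. The median of the other short genes was thus close to that of all genes. Genes with a snoRNA gene inside (28) and without (47) had medians of −1.50 and −1.42.

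Levels per transcript length differed widely among RP genes, although the proteins are needed in nearly equal numbers. Length was that of the longest RefSeq-matched coding transcript. It was 5179 bases for Rps15a, 3706 for Rps20, 1242 for Rpl12 and 1106 for Rpl28. How far this choice of transcript adds to the spread was not tested. In naïve INPUT the highest were Rplp1 at 515 ± 64.6, Rpl4 at 245 ± 11.0 and Rpl41 at 226 ± 29.5 CPM per kb (SD, n = 4). The lowest were Rpl28 at 2.02 ± 0.207, Rpl30 at 1.58 ± 0.485 and Rpl12 at 1.28 ± 0.353 CPM per kb (SD, n = 4). In the annotation Rpl28 overlaps the gene Ube2s and Rpl12 overlaps Lrsam1, and the part of this in their low levels was not tested. Rpl4, a large subunit protein that lines the exit tunnel, had 384, 352, 391 and 379 CPM in naïve INPUT and 158, 171, 159 and 175 CPM in naïve IP. Rpl41, the shortest ribosomal protein, had 92.7, 87.2, 117 and 99.0 CPM and 26.1, 24.2, 24.4 and 27.2 CPM. Among the last, Rpl30 had only 0.904, 1.77, 1.75 and 1.17 CPM in naïve INPUT.

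Many RP genes have processed pseudogenes, copies of the mRNA placed back in the genome, and the study counted uniquely mapped 69-base reads only. Levels were lower where more of a transcript was shared with other annotated genes. The 17 RP genes with under 25% of their 69-base stretches shared had a median of 70.7 CPM per kb in naïve INPUT, the 41 with 25 to 75% had 15.8, and the 17 with over 75% had 7.00. Over the 75 genes Pearson r was −0.32 and Spearman rho −0.48 between level and shared part. The IP over INPUT ratio did not follow the same order, with medians of −1.36, −1.56 and −1.37 in the 3 classes. Thus levels of single RP genes are uncertain here, and the part of lost multi-mapping reads in them was not tested. Unannotated copies were not counted. The row Rpl14-ps1, a named pseudogene outside the rule, had 85.4 ± 10.1 CPM in naïve INPUT and 29.9 ± 1.67 CPM in naïve IP (SD, n = 4), near the 78.0 ± 6.01 and 26.0 ± 4.48 CPM (SD, n = 4) of Rpl14. How reads were divided between Rpl14 and this copy cannot be told from the tables.

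Beyond the RP symbols, 4 lists of the same pathway were counted, along with ribosomal proteins that carry other symbols. Of the latter, Fau was lower in naïve IP at −0.77 ± 0.26 and Gnb2l1 at −1.11 ± 0.07 (log2 ratio ± SE). Fau encodes a small subunit protein fused to a ubiquitin-like protein, and Gnb2l1 is the scaffold protein RACK1 of the small subunit. Among 76 mitochondrial ribosomal proteins, which belong to a separate ribosome, 59 were lower and 1 higher, with a median of −0.50. Of 45 ribosome biogenesis factors, 36 were lower and 5 higher, also with a median of −0.50. These medians were above the all-gene median of −0.64, unlike that of the RP genes. By count, both lists were called lower more often than all 13339 genes tested, of which 64.0% were lower and 23.7% higher.

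Of the 16 other TOP mRNAs, 14 were lower and 0 higher, against 64.0% and 23.7% of all genes tested. The 16 had a median of −0.75. They include translation factors such as Eef1a1 at −0.55 ± 0.06 and Eef2 at −0.41 ± 0.05, and Tpt1 at −1.73 ± 0.16 (log2 ratio ± SE). In the mTORC1 pathway, which acts on TOP mRNAs, 7 of 19 genes were lower and 5 higher, with a median of 0.08. Among the mTORC1 inhibitor genes, not all of which are given here, Sesn3 and Ddit4 were higher at 1.72 ± 0.07 and 1.15 ± 0.21. Deptor, also an inhibitor gene, was lower at −1.15 ± 0.08 (log2 ratio ± SE). Larp1, whose protein binds the TOP motif, was higher at 0.23 ± 0.07. After swim stress 0 genes of any of these lists were called in IP or INPUT, against 0.440% and 0.0442% of all genes tested. The smallest adjusted p for Ddit4 was 0.24 in IP, at a log2 change of 0.52 ± 0.14 (SE, limma).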

How the data were processed

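RNA of 16 libraries was sequenced as 69-base paired-end reads after ribosomal RNA removal. With STAR, the authors mapped them to mm10, used HTSeq to count uniquely mapped reads per RefSeq gene, and deposited 1 table per library of log2 CPM with a small constant added. Here the constant was removed, whole reads were recovered, and log2(CPM + 0.1) was fitted with limma 3.58.1 in R 4.3.3 (lmFit, eBayes with trend) for genes whose mean exceeded 1 CPM in that comparison. Calls had a Benjamini-Hochberg adjusted p under 0.05 over all genes tested. A fold change on this scale understates the change of low genes. An exact permutation test (two-sided, 70 labelings) was added for single genes. The fit was tested on simulated data. Alternatives were other pseudocounts, filters and scalings, limma-voom, 1 model over all libraries, a variance that ignores expression, array weights, and leaving out each library.

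Transcript length, GC content, and 69-base stretches shared with other genes were computed from GENCODE M21 (GRCm38, that is mm10), which matched 22799 of 24058 symbols (94.8%). For each gene the longest transcript was used, with RefSeq-matched coding transcripts taken first. Promoters came from RefSeq on GRCm38.p6. Named genes were Rpl22 and Rpl22l1, and those at the ends of the ratios, stress p-values, levels per length and coherence. The members and lists were chosen with earlier results of these data known, so no count of them is independent support. Per the study's methods, the tissue of every mouse was homogenized separately, so libraries of a group come from different mice. Reads carry no molecular identifiers. One gene of a list is not reported here. Sex per library is not given in the sources used here and was not modelled. Tables and plots used Python 3.11.15.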

Additional observations from a re-analysis of the deposited data

Results flagged for a closer look

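Within each group of 4 libraries, 108 sets of values (27 quantities in 4 groups) were examined for 1 library far from the other 3, and 5 were found where chance alone gives about 5.4 (1 in 20). Rps7 in naïve IP 2 was at 0.979 CPM while the others lay between 1.63 and 1.72, and in naïve INPUT 3 it was at 4.07 CPM with the others between 5.95 and 6.15. Rps12 in naïve IP 2 was at 0.832 CPM against 0.493 to 0.548 CPM. Rpl31 in naïve INPUT 3 was at 8.98 CPM against 7.54 to 7.78 CPM. Rps6 in stress INPUT 9 was at 8.80 CPM against 10.4 to 10.6 CPM. The summed share of the ribosomal protein genes had no such library in any group.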

How the results depend on the processing

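The counts of ribosomal protein genes called stayed within 1.5 times the reported ones under all alternatives, with 48 to 74 in naïve and 46 to 71 in stressed mice for IP against INPUT, the low ends coming from the filter at a mean above 5 CPM, which left 50 and 49 genes to test. Leaving out 1 library gave 69 to 73 and 65 to 71 calls. The stress comparisons in IP and INPUT and their difference gave 0 calls under each alternative and with each library left out (0 to 0). The median log2 ratio went from −1.45 to −1.21 in naïve and from −1.44 to −1.19 in stressed mice with a pseudocount of 1, and to −0.81 and −0.79 with median-ratio scaling; with 1 library left out it ran from −1.52 to −1.40 and from −1.54 to −1.37. The ratio of Rpl22 ran from −0.90 to −0.83 in naïve and from −0.75 to −0.66 in stressed mice with 1 library left out, and was no longer called in stressed mice with median-ratio scaling (−0.063, adjusted p = 0.48, limma). Median-ratio scaling turned 5 genes named in the report to positive values in naïve mice, Rpl7l1 to 0.53, Rpl18 to 0.28, Rpl7a to 0.23, Rps6 to 0.18 and Rps4l to 0.12, because it sets the typical gene to 0. Of 413 values of 25 other named ratios, 393 kept direction and side of the threshold, 9 gained a call, 6 lost it and these 5 turned. Rps27l, at 0.30, was past the threshold under 6 alternatives, among them without naïve IP 11 (0.38, adjusted p = 0.020, limma). Rps4l gained its call without naïve IP 11 (−0.74) or naïve INPUT 7 (−0.74), Rpl30 lost it without naïve IP 11 (−0.61), and Rpl18 lost it without naïve INPUT 14 (−0.26). No paired analysis was possible because the library numbers run from 1 to 16 and no number is shared between groups. Low read numbers limit single genes: 30 of the 75 had under 100 reads on average in naïve IP.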
